A study of Homo sapiens with 4 samples.

Results

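The genes described here encode ion channels and neurotransmitter receptors: the voltage-gated, inward-rectifier, tandem-pore and calcium- or sodium-activated potassium channels, the voltage-gated sodium and calcium channels with their auxiliary subunits, and the receptors for glutamate, GABA and acetylcholine. They were taken from a ChIP-seq table by gene symbol. A region was a member when its annotated nearest gene was protein-coding and the symbol began with KCN, SCN and a digit, CACN, GRIA, GRIK, GRIN with 1, 2 or 3, GRM and a digit, GABR, CHRN or CHRM. In total, 340 of 29302 regions met this rule and were assigned to 121 genes, of 200 RefSeq protein-coding genes whose symbol has the same form. The other 79 genes had no region assigned. Counts per gene and class go by this assignment to the nearest start, so a region inside a long gene may be counted at another gene. Counts of regions that overlap the RefSeq gene are given for some genes, and they also differ from the assigned counts at genes where they are not given.

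Ion channels are membrane proteins whose pores let potassium, sodium, calcium or chloride cross the membrane. Their pore subunits set the electrical behaviour of neurons, while auxiliary subunits alter gating, trafficking and surface number. Glutamate and acetylcholine receptors excite or modulate the cells that carry them, and GABA-A receptors are chloride channels that mostly inhibit neurons in the adult brain. Glial cells and gliomas also carry many of these proteins. Of the 200 genes, 78 are 100 kb or longer, and the median length is 59.0 kb, against 24.1 kb for all coding genes. Many have large introns, and many are kept silent outside the nervous system by the repressor REST, which binds a DNA element known as RE1.

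The cells were T98G, an established human glioblastoma line, with either LGP2 overexpressed or an empty vector. LGP2 belongs with RIG-I and MDA5 to the helicases that sense viral RNA in the cytosol. Each condition had 1 ChIP library and 1 input library (chromatin without antibody enrichment), and the table gave values for the ChIP libraries only. The inputs were not analysed here. By its title the series asked about LGP2 in the development of glioma. The published study lists the vector pair with its chromatin data on crotonylated lysine, an acyl mark of histones, but no source used here names the antibody behind the LGP2 library. Column names in the table place both constructs in a vector called pCW, and nothing else was stated on the clones or on the level of LGP2. With 1 library per condition no difference between the conditions could be tested, and every comparison below describes these libraries only.

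Depth was low. The deposited values were normalized read densities, from which whole reads were recovered for each region in a window inferred to be 2 kb wide. Over the 340 windows the LGP2 library had 967 reads and the vector library 885, a ratio of 1.09 (95% CI 0.996 to 1.20, exact, counting error only). Over all 29302 windows the LGP2 library had 73695 reads and the vector library 77095, a ratio of 0.956. A member window held a median of 3 reads in the LGP2 library (range 0 to 8) and of 3 in the vector library (range 0 to 8), and both together held 2 to 13. The full depth of either library is not known. Reads had no molecular identifiers, so the intervals could understate even the counting error, and 11 pairs of neighbouring member windows overlapped and so shared reads.

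Few of the regions lay on a gene start. Promoter sequence from RefSeq (GRCh38.p14, from 250 bases before to 50 after a start) was matched by symbol for 90 of the 121 genes, which held 272 regions. Only 3 of these regions overlapped a start window of their gene, or 1.10% (exact 95% CI 0.228 to 3.19), against 1.03% of 10058 regions of all coding genes matched in the same way. The 3 windows are shown because they are the member starts that the called regions reached, and capitals mark the bases inside the called region.
KCNS3 start window, chr2:17877597-17877896, plus strand: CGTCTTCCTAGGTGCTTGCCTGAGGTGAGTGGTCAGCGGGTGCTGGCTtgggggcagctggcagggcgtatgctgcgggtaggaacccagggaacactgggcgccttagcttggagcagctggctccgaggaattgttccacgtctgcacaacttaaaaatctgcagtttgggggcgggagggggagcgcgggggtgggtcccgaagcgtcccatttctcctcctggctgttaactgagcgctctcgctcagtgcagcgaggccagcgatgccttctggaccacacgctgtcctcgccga
GRM4 start window, chr6:34146038-34146337, minus strand: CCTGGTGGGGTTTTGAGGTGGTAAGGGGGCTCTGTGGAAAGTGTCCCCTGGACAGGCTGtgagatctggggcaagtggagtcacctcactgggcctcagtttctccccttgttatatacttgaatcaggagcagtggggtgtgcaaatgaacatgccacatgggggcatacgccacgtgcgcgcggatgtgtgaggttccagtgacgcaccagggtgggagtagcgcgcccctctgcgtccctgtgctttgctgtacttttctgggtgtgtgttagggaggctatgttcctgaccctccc
KCNC2 start window, chr12:75209790-75210089, minus strand: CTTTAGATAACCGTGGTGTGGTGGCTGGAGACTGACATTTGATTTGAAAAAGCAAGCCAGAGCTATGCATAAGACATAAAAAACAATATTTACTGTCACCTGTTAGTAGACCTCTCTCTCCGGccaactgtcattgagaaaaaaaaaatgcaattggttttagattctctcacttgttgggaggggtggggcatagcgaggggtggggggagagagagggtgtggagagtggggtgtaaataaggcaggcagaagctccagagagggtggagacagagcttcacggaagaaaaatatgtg
All 3 regions covered the upstream end of the window and stopped short of the start: the capitals run from base -250 to base -203 at KCNS3, to base -192 at GRM4 and to base -128 at KCNC2. KCNS3 encodes a silent subunit that modifies other Kv channels, GRM4 an inhibitory glutamate receptor, and KCNC2 a fast Kv3 channel. KCNS3 had 2 reads in the LGP2 library, which called the region, and 4 in the vector library. GRM4 had 3 reads in the LGP2 library, which called it, and 1 in the vector library. KCNC2 had 2 reads in the LGP2 library and 7 in the vector library, which called it. The library that called a region was thus not always the one with more reads. The KCNS3 window held 19 CG dinucleotides at 63.0% G and C, the GRM4 window 9 at 58.0%, and the KCNC2 window 4 at 46.3%.

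Over the start windows of channel and receptor genes, searched on both strands, the GC box GGGCGG was found in 50.7% of 217 windows, against 56.3% of 22183 windows of all coding genes. The letters TATAAA were found in 7.37% of member windows and in 9.47% of all. The right part of the RE1 element, GGACAGC, stood in 10.1% of member windows and in 6.64% of all, and the median number of CG dinucleotides was 15 in member windows and 21 in all. None of the 3 motifs contains another. Of the start windows shown, only KCNS3 held a GC box and the RE1 part. A match describes the letters and is not evidence of a bound factor.

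The libraries called different regions throughout. Of the 340 regions, 203 were called only in the LGP2 library (59.7%, exact 95% CI 54.3 to 65.0) and 137 only in the vector library (40.3%, 35.0 to 45.7). No member was called in both, but such regions were rare throughout, at 79 of 29302. Over all 29302 regions, 54.9% were called only with LGP2 and 44.9% only with the vector, and over the 12612 regions of coding genes 56.5% were called only with LGP2, shares that lay within the interval of the members. No source used here tells whether both libraries were called with the same threshold, so the counts per library may not be comparable.

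The nearest of all regions of the other library lay a median of 67.4 kb from the 203 LGP2 members and 48.1 kb from the 137 vector members. Over the whole table these medians were 71.9 kb for regions called only with LGP2 and 61.5 kb for those called only with the vector, and 1.08% and 1.32% lay within 1000 bp. Among the members 4 regions of each library lay that close: at GRIK4, 163 bp apart, at KCNJ6, 205 bp apart, at GRM4, 302 bp apart, and at KCNS2, 478 bp apart. At these places the windows overlapped and both libraries had reads. The LGP2 region at KCNJ6 had 4 LGP2 and 4 vector reads, and the vector region beside it also had 4 and 4.

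The log2 ratio of the densities (LGP2 over vector, with 1 read added to each library) had a median of 0.43 over the members (95% interval from order statistics 0.15 to 0.56), against 0.15 over all regions, which is the lower end of that interval. With windows at 0 reads set to the floor of 3 reads, the medians were 0.15 over the members and 0 over all regions. At least 2-fold higher density with LGP2 was seen in 117 members (34.4%, exact 95% CI 29.4 to 39.7), against 29.5% of all regions. At least 2-fold lower density was seen in 75 members (22.1%, 17.8 to 26.8), against 25.2% of all regions. Both background shares lay within these intervals. The same reads that gave the ratio had decided the calls, so a positive ratio in a region called with LGP2 is partly fixed by the call. Even so, 27 members had their ratio against the library that called them, 85 differed by no more than 1 read between the libraries, and 30 had equal reads.

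**Figure D1:**
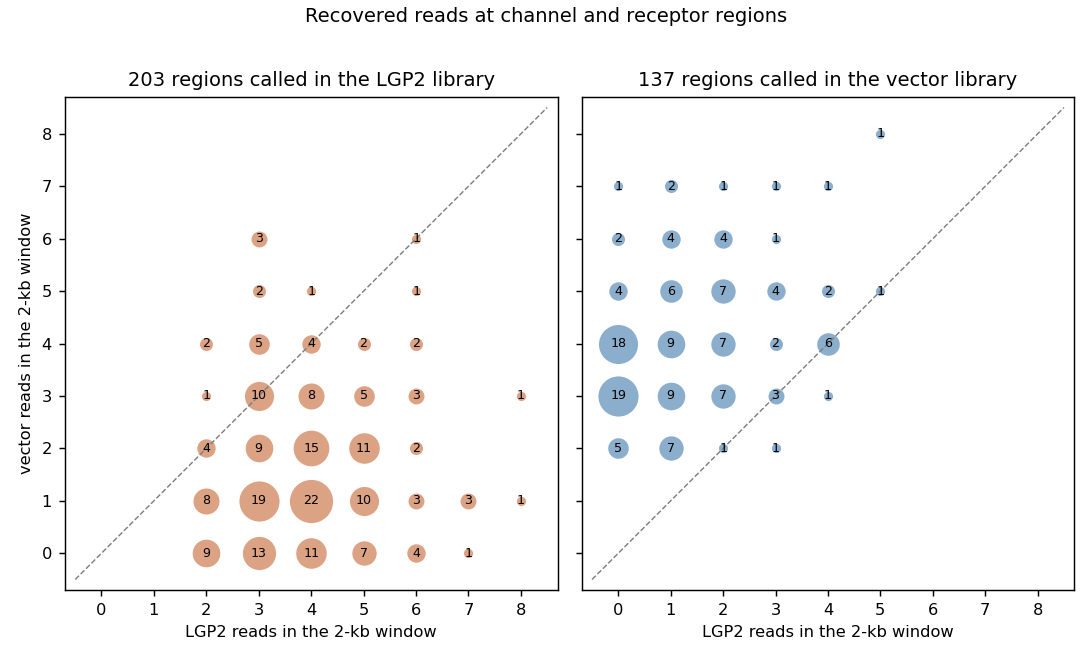
Reads recovered in the 2-kb window of each channel and receptor region, LGP2 reads on the horizontal and vector reads on the vertical axis, for the 203 regions called in the LGP2 library (left) and the 137 called in the vector library (right). The number in each circle counts regions with that pair of values, and the dashed line marks equal reads; no window exceeds 8 reads in either library.

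Counting error alone left nearly all single regions unresolved. The exact 95% interval of the reads ratio lay above 1 in 6 members (1.76%), against 0.775% of all regions, and below 1 in 3 members (0.882%), against 1.67% of all regions. In 49 members the LGP2 library had 0 reads and in 45 the vector library had 0, and only 4 had 5 or more in both. Among the 6 regions above 1 were those at KCNC1, GRM4, KCNH1 and KCNQ3, and among the 3 below 1 those at GRIA4 and CACNA2D1. No adjustment over regions was made.

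At the upper end, the largest ratio was at KCNC1, a Kv3 channel of fast-spiking neurons. Its region (chr11:17816616-17816988) lay in an intron by the deposited annotation but beyond the RefSeq gene. It had 7 reads with LGP2 and 0 with the vector, 2.33-fold higher against a floor of 3 reads per library. Folds against this floor leave out the counting error of the library that had reads. Next came 4 regions with 6 reads with LGP2 and 0 with the vector, each 2-fold higher against the floor (exact interval from 1.18). Of these, 1 lay in an intron of GRM4 (chr6:34074257-34074633) and 1 in an intron of KCNH1 (chr1:210707049-210707414), an EAG potassium channel. CACNA1B, GRIN2A, KCNF1, KCNJ14 and KCNS3 had 5 reads with LGP2 and 0 with the vector, 1.67-fold higher against the floor. SCN4A and SCN11A tied with them. For 5 against 0 reads the exact interval of the reads ratio starts at 0.916 and so includes equal reads. None of the fitted log2 ratios of these regions, up to 3.13, is a bound, since they depend on the added read.

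At the lower end stood GRIA4, an AMPA receptor subunit. Its intronic region (chr11:105948260-105948641) had 0 reads with LGP2 and 7 with the vector, 2.33-fold lower against the floor. CACNA2D1, the alpha2delta subunit that binds gabapentin, had an intronic region (chr7:82316749-82317105) with 0 reads with LGP2 and 6 with the vector. This was 2-fold lower against the floor. CACNB4, GRIK2, GRM8 and KCNIP1 had regions with 0 reads with LGP2 and 5 with the vector, and a further region of CACNA2D1, CACNG3 and CHRM5 had 0 with LGP2 and 4 with the vector. All of these regions were intronic.

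By position, the regions were mostly intronic. Introns held 218 of the 340 (64.1%, exact 95% CI 58.8 to 69.2), against 42.0% of all regions and 47.8% of those at coding genes. Regions within 3 kb of an annotated start, which the annotation calls promoter, made up 17.1% (13.2 to 21.5), against 20.1% of all regions and 27.1% at coding genes. Intergenic regions were 12.4% (9.05 to 16.3), against 33.2% of all regions and 18.8% at coding genes. The remainder comprised 13 regions in a 3' UTR, 7 in an exon, 1 in a 5' UTR and 1 downstream of a gene. Of the intronic regions, 197 lay in an intron of the assigned gene and 21 in an intron of another gene, and 72 were in the first intron (33.0%), against 29.4% of intronic regions overall.

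**Figure D2:**
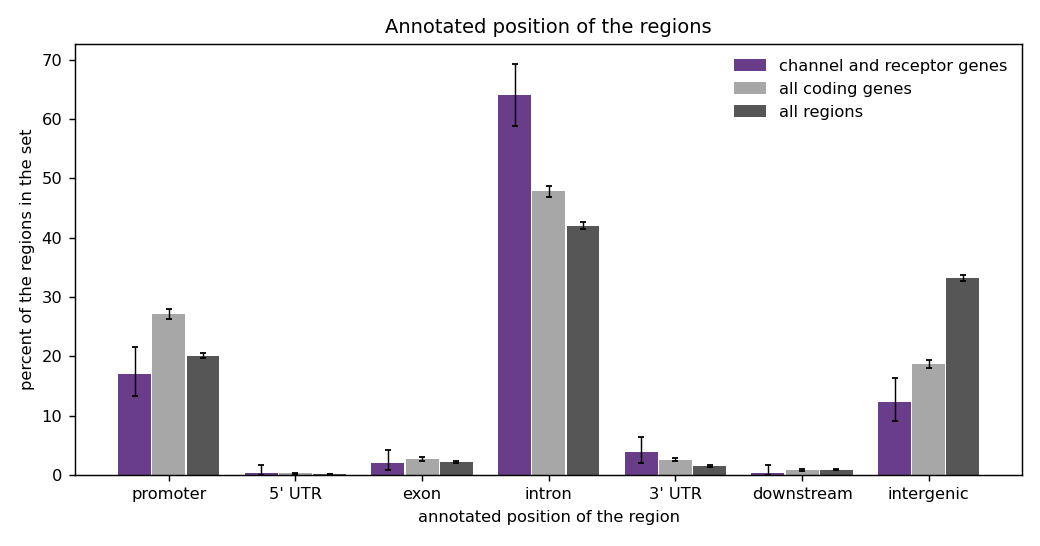
Annotated position of the regions, as percent of the set on the vertical axis, for channel and receptor genes (340 regions), all coding genes (12612) and all regions (29302). Bars are shares and whiskers exact 95% binomial intervals, which cover counting error only; introns hold 64.1% of the channel and receptor regions, against 47.8% and 42.0%.

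The calling library was also counted by position. In introns, 130 regions were called with LGP2 and 88 with the vector, with a median log2 ratio of 0.18, against 6563 and 5715 of all intronic regions. Promoter regions numbered 35 with LGP2 and 23 with the vector, with a median of 0.48, against 3444 and 2425 of all promoter regions. Within 1 kb of a start there were 12 and 13, against 1609 and 1093 of all such regions. Intergenic regions numbered 29 with LGP2 and 13 with the vector, with a median of 1.01, against 5281 and 4424 of all intergenic regions. The intergenic members lay 5.18 to 213.774 kb from the start of the gene they were assigned to, so the link to that gene rests on distance only. Altogether 258 of the 340 regions overlapped the RefSeq gene of their symbol and 82 did not.

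Longer genes held more regions. The 121 genes with a region had a median length of 142.5 kb, against 17.8 kb for the 79 without. Across the 200 genes, length and the number of overlapping regions gave a Pearson r of 0.81 and a Spearman rho of 0.77; this is across genes, which are not replicates. Counted by overlap with the RefSeq gene, whatever the nearest start, the 200 genes held 415 regions over 29.6 Mb, or 14.0 regions per Mb (exact Poisson 95% CI 12.7 to 15.4), against 10.7 (10.5 to 10.9) over all coding genes. Of the distinct regions behind that count, 152 had been assigned to a gene outside the rule, often another transcript nearby.

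The higher rate was seen in both length classes. Among genes of 100 kb or longer, channel and receptor genes had 13.5 regions per Mb (12.1 to 15.0), against 10.3 (10.0 to 10.5) for all coding genes of that length. Among shorter genes the rates were 17.7 (13.7 to 22.5) and 11.5 (11.2 to 11.8). Regions called only with LGP2 reached 8.54 per Mb (7.52 to 9.66) in the channel and receptor genes, against 5.97 (5.83 to 6.10) in all coding genes. Those called only with the vector reached 5.47 per Mb (4.66 to 6.38), against 4.68 (4.57 to 4.80). The intervals treat regions as independent counts, the members are part of the coding genes, and mappability and base composition were not tested.

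**Figure D3:**
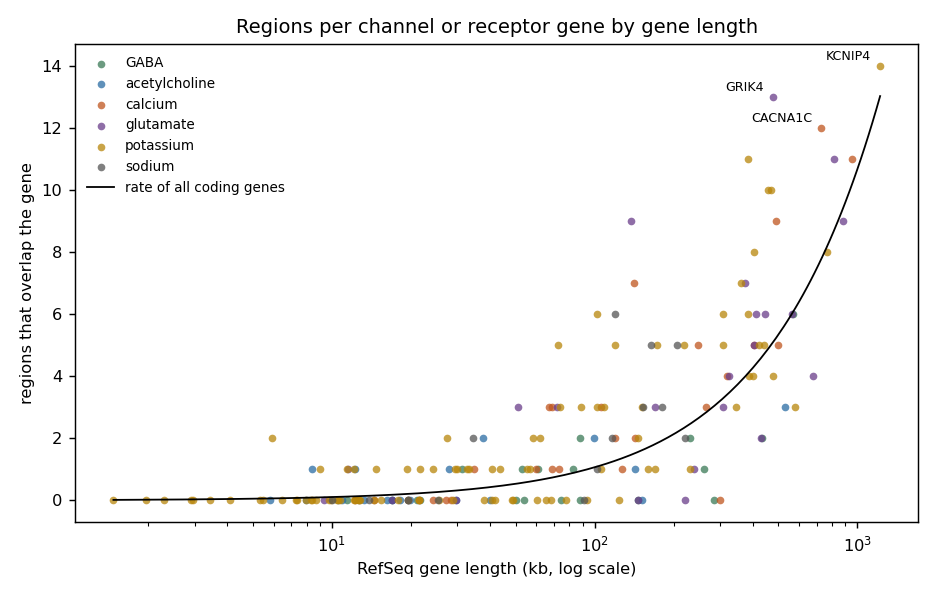
Number of regions that overlap each of the 200 channel and receptor genes (vertical axis) by RefSeq gene length in kb (horizontal, log scale), coloured by family. The black line is the rate of all coding genes, 10.7 regions per Mb; KCNIP4 with 14 regions and GRIK4 with 13 lie highest.

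Potassium channels, the largest family, set the resting potential and end the action potential. They accounted for 141 regions at 52 of 96 genes, of which 91 were called with LGP2 and 50 with the vector. Summed over their windows, the LGP2 library had 428 reads and the vector library 355, a ratio of 1.21 (1.04 to 1.39). Over all regions of the table the ratio was 0.956. The sums follow the calls made from the same reads, with a ratio of 2.35 over all LGP2 members and 0.322 over all vector members. The family was chosen for mention after its values were seen. Glutamate receptors had 39 regions called with LGP2 and 34 with the vector, calcium channels 39 and 20, sodium channels 16 and 12, GABA-A receptors 13 and 14, and acetylcholine receptors 5 and 7. The background for these counts and for the class counts below is the 54.9% of all regions called only with LGP2.

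**Figure D4:**
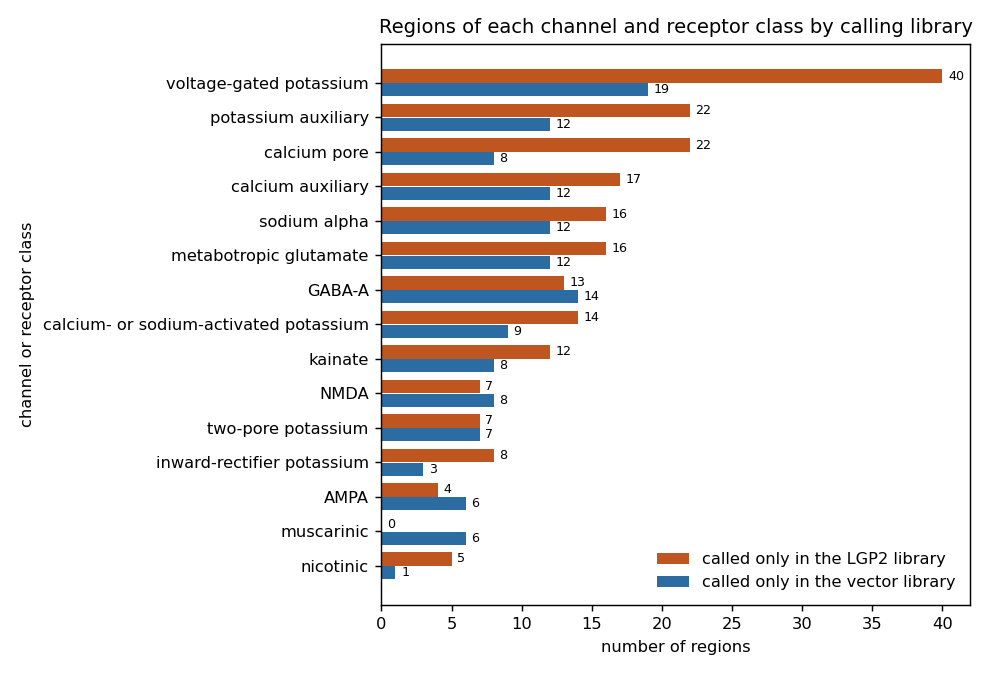
Number of regions (horizontal axis) called only in the LGP2 library and only in the vector library for each channel or receptor class, ordered by the total. Voltage-gated potassium channels have the most, 40 with LGP2 and 19 with the vector, and the muscarinic receptors have 0 and 6.

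Voltage-gated potassium channels had regions at 23 of 40 genes. There were 40 with LGP2 and 19 with the vector, the median log2 ratio was 0.56, and the summed reads were 199 with LGP2 and 150 with the vector (ratio 1.33, 1.07 to 1.65), sums that follow the calls made from the same reads. KCNQ3, a subunit of the neuronal M current, carried 6 regions spread over its first intron. Going along the gene from the lower coordinate, they had 4, 4, 5, 8, 5 and 4 reads with LGP2 and 2, 1, 1, 1, 2 and 4 with the vector, so that no assigned region had more vector reads, although 2 of the 7 regions overlapping the gene were called with the vector. The strongest of them (chr8:132356087-132356375) had 8 reads with LGP2 and 1 with the vector, a ratio of 8 with an exact interval of 1.07 to 355, and the last was called in the vector library at equal reads. KCNQ3 was singled out after its values were seen.

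On chromosome 20 as a whole 76.9% of 763 regions were called only with LGP2, against 54.9% over the genome, and 9 of the 12 members there were. Copy number was not tested.

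Other members of the class were smaller. KCNS3 had 5 regions, 4 of them called with LGP2, with 13 reads with LGP2 and 9 with the vector in all. Only 1 region overlapped the RefSeq gene of KCNS3. KCNH1 had 5 regions with 16 reads with LGP2 and 6 with the vector, while KCNH2, the hERG channel of the heart, had 3 regions with 16 and 11. KCNA3, the Kv1.3 channel of lymphocytes, had 2 intergenic regions called with LGP2, with 7 and 5 reads with LGP2 and 1 and 1 with the vector. KCNQ5 had 0 reads with LGP2 and 7 with the vector over 2 regions. Within 1 kb of a start, KCNH5 had 2 reads with LGP2 and 3 with the vector, and KCNS2 had 4 and 4. KCNA10, KCNC4, KCND2, KCND3, KCNF1, KCNG2, KCNH3, KCNH7, KCNH8 and KCNQ1 had 1 to 4 regions each. Among the genes with no region assigned were KCNA1, KCNA2, KCNA4, KCNA5, KCNA6, KCNA7, KCNB2, KCND1, KCNG1, KCNG3, KCNG4, KCNH4, KCNH6, KCNS1, KCNV1 and KCNV2. Of these, KCNB2 overlapped 4 regions assigned elsewhere, all called with the vector, and KCNG3, KCNH4 and KCNV1 overlapped 1 each.

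Calcium- or sodium-activated potassium channels had 14 regions with LGP2 and 9 with the vector, at KCNMA1, KCNN2, KCNN3 and KCNT2. KCNMA1 encodes the BK channel, which opens with calcium and depolarization and is well known from glioma cells. All 5 regions assigned to it were called in the vector library, with 0, 1, 1, 2 and 1 reads with LGP2 and 3, 4, 3, 3 and 4 with the vector. KCNT2, a sodium-activated channel, stood opposite: its 6 regions had 3, 3, 4, 3, 3 and 3 reads with LGP2 and 0, 2, 2, 3, 0 and 1 with the vector, and none had a ratio below 1. Over its whole length KCNMA1 overlapped 8 regions, 2 called with LGP2 and 6 with the vector. Both genes were chosen after their values were seen, and no single region of either had an interval that excluded equal reads. KCNN2, a small-conductance channel, had 7 regions, 5 with LGP2 and 2 with the vector. The most reads of the class in one window were at KCNN3 (chr1:154794593-154794921), with 3 with LGP2 and 6 with the vector. KCNN1, KCNN4, KCNT1 and KCNU1 had no region assigned, but KCNU1 overlapped 3, of which 2 were called with LGP2 and 1 with the vector.

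Inward rectifiers, which hold the membrane near the potassium equilibrium, had 8 regions with LGP2 and 3 with the vector at 9 of 16 genes. KCNJ10, the Kir4.1 channel of astrocytes, had 1 region with 3 reads in each library. KCNJ14 had 5 reads with LGP2 and 0 with the vector 1166 bp from a start, and KCNJ6 had 3 regions with 9 reads with LGP2 and 15 with the vector. The region of KCNJ12 had 2 and 4 reads; KCNJ18 is a near copy of this gene, so reads could belong to either. KCNJ1, KCNJ3, KCNJ5, KCNJ9 and KCNJ15 had 1 region each. KCNJ2, KCNJ4, KCNJ8, KCNJ11, KCNJ13, KCNJ16 and KCNJ18 had none assigned.

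Tandem-pore (KCNK) channels, which carry leak current, had 7 regions with LGP2 and 7 with the vector at 6 of 15 genes, with a median log2 ratio of -0.24. KCNK9, the TASK-3 channel, held 6 of them. They had 3, 4, 4, 2, 2 and 6 reads with LGP2 and 6, 1, 4, 6, 6 and 2 with the vector, and 3 were called in each library. The first lay 771 bp from a start. KCNK1 had 2 regions with 3 and 5 reads with LGP2 and 0 and 1 with the vector. KCNK2, KCNK5, KCNK10 and KCNK12 had 1 or 2 regions each, and KCNK3, KCNK4, KCNK6, KCNK7, KCNK13, KCNK15, KCNK16, KCNK17 and KCNK18 had none assigned.

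Auxiliary potassium subunits had 22 regions with LGP2 and 12 with the vector at 10 of 17 genes. KCNIP4 and KCNIP1 encode calcium-binding proteins that join Kv4 channels. KCNIP4 is the longest gene of the set and had 9 regions, all intronic, 7 of them called with LGP2. From the lower coordinate up they had 3, 0, 2, 3, 3, 3, 4, 4 and 3 reads with LGP2 and 1, 3, 3, 2, 0, 1, 0, 1 and 0 with the vector. The last 5 all had more reads with LGP2. KCNIP1 was assigned 2 regions called with LGP2 and 5 with the vector, with 16 reads with LGP2 and 26 with the vector, but the gene overlapped 11 regions, 6 called with LGP2 and 5 with the vector. Near starts, KCNIP1 had 3 and 4 reads and KCNIP3 had 3 and 3. KCNMB3, a BK beta subunit, reached 8 reads with LGP2, the most there of any member beside KCNQ3, and 3 with the vector. KCNAB1, KCNAB2, KCNE4, KCNMB1, KCNMB2 and KCNRG also had regions. KCNAB3, KCNE1, KCNE2, KCNE3, KCNE5, KCNIP2 and KCNMB4 had none assigned.

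Sodium channels start the action potential. All 10 alpha subunits of the voltage-gated family had at least 1 region assigned, and none of the 4 beta subunits did (0.068698 Mb in all). By overlap with the RefSeq gene, which the rate below uses, 9 of the 10 alpha genes held a region and SCN7A held none. The alpha subunits held 20.9 regions per Mb (14.0 to 29.99), the highest rate of any class, with 16 assigned regions called with LGP2 and 12 with the vector. SCN10A and SCN11A lie side by side on chromosome 3. SCN11A had 3 regions called with LGP2, with 5, 4 and 3 reads with LGP2 and 0, 2 and 1 with the vector. SCN10A had 4, with 5, 4, 2 and 5 reads with LGP2 and 2, 0, 5 and 3 with the vector. Of these 7 regions, 6 were called with LGP2.

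The brain sodium channels showed both directions near their starts. SCN2A, a gene with an RE1 element in its promoter region in textbook accounts, had 5 reads with LGP2 and 2 with the vector 744 bp from a start. SCN9A, a channel of pain neurons, had 1 and 5 at 62 bp, SCN1A had 4 and 3 at 994 bp, and SCN8A had 0 and 3 at 586 bp. Over all their regions, SCN3A had 1 read with LGP2 and 6 with the vector, and SCN8A also 1 and 6. SCN4A, the skeletal muscle channel, had 10 with LGP2 and 4 with the vector, and SCN7A had 6 and 7.

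Calcium channel pores convert depolarization into calcium entry. They had 22 regions with LGP2 and 8 with the vector at 8 of 10 genes, with a median log2 ratio of 0.43 and summed reads of 87 with LGP2 and 72 with the vector. All 4 regions assigned to CACNA1C, the L-type channel of heart and brain, were called with LGP2, with 2, 4, 4 and 4 reads with LGP2 and 1, 2, 1 and 1 with the vector. This long gene overlapped 12 regions, however, 8 called with LGP2 and 4 with the vector. CACNA1E, the R-type channel, had 7 regions with 5, 2, 3, 2, 3, 1 and 1 reads with LGP2 and 2, 1, 3, 3, 3, 3 and 3 with the vector. The first 2 had more LGP2 reads and the last 2 fewer. By assignment 4 of the 7 were called with LGP2, but the CACNA1E gene overlapped 9 regions, 3 called with LGP2 and 6 with the vector. The T-type genes CACNA1G, CACNA1H and CACNA1I, grouped after their values were seen, had 7 regions, all called with LGP2. Of these, 1 at CACNA1G had a log2 ratio below 0. On their chromosomes, 17, 16 and 22, 61.7%, 61.8% and 65.3% of all regions were called only with LGP2. CACNA1B, the N-type channel, had 1 region with LGP2, at 5 and 0 reads, and 3 with the vector. Near starts, CACNA1C had 4 and 1 reads, CACNA1G had 4 and 1 and CACNA1H had 3 and 3. CACNA1F and CACNA1S had no region assigned, though CACNA1S overlapped 1 called with LGP2. CACNA1D had 3 regions with LGP2 and 1 with the vector, and none of the 4 regions assigned to CACNA1A overlapped its RefSeq gene.

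Auxiliary calcium channel subunits had 17 regions with LGP2 and 12 with the vector at 11 of 16 genes. The 7 regions of CACNA2D1 had 3, 0, 3, 4, 0, 4 and 5 reads with LGP2 and 5, 4, 2, 3, 6, 5 and 2 with the vector. Regions without any LGP2 read thus lay between regions where both libraries had reads. CACNA2D3, a longer gene of the same family, had 7 regions, 5 with LGP2 and 2 with the vector, and its region 578 bp from a start had 2 and 4 reads. CACNG7, a gamma subunit that also binds AMPA receptors, had 0 and 3 reads 535 bp from a start. CACNA2D2, CACNA2D4, CACNB2, CACNB4, CACNG1, CACNG2, CACNG3 and CACNG4 had 1 to 4 regions. CACNB1, CACNB3, CACNG5, CACNG6 and CACNG8 had none assigned, and CACNG5 overlapped 1 called with LGP2.

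Among glutamate receptors, the AMPA subunits carry fast excitation. All 4 genes had regions, 4 with LGP2 and 6 with the vector. GRIA1 had 3 regions called with the vector, with 2, 0 and 0 reads with LGP2 and 4, 3 and 4 with the vector, while the gene itself overlapped 2 called with LGP2 and 2 with the vector. GRIA2, whose edited subunit blocks calcium entry, had 1 region with 2 reads with LGP2 and 0 with the vector, 35944 bp from a start. GRIA4 had 3, 5 and 0 reads with LGP2 and 0, 2 and 7 with the vector, so that its regions pointed both ways. GRIA3 had 3 regions, with 3 reads with LGP2 and 6 with the vector in all.

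Kainate receptors had 12 regions with LGP2 and 8 with the vector, and all 5 genes had at least 1. GRIK2 had 8 regions. From the lower coordinate up they had 2, 1, 4, 0, 0, 4, 3 and 4 reads with LGP2 and 5, 5, 4, 5, 3, 0, 3 and 1 with the vector. The first 5, all outside the RefSeq gene (3 in an intron by the deposited annotation and 2 intergenic), were called with the vector, and the last 3, inside it, with LGP2. The gene also overlapped 1 vector region assigned elsewhere. GRIK4 had 7 regions, 5 with LGP2 and 2 with the vector, with 31 reads with LGP2 and 22 with the vector. One of them (chr11:120797025-120797464), with 6 and 5 reads, was among the few with 5 or more in both libraries. GRIK1, GRIK3 and GRIK5 had 1 or 2 regions each.

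**Figure D5:**
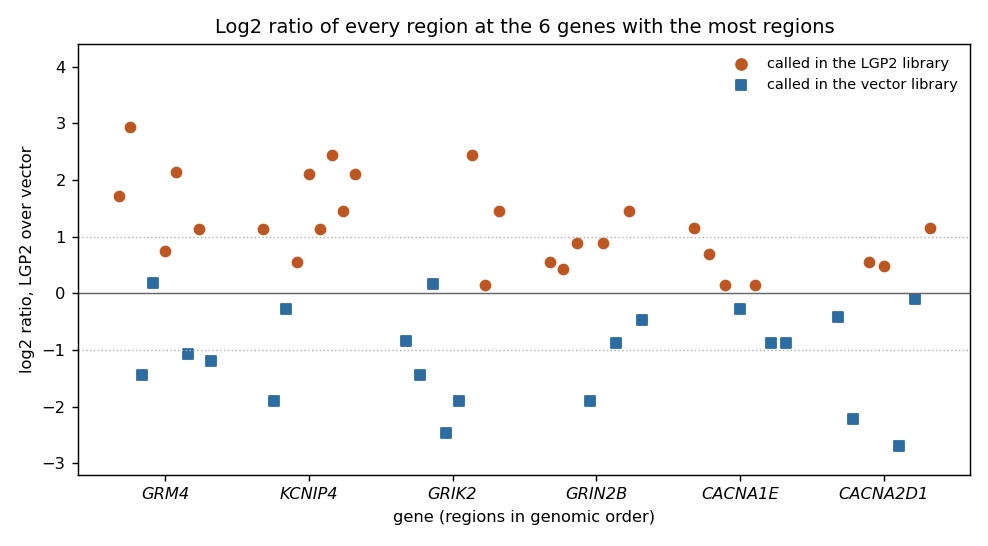
Log2 ratio of the densities (LGP2 over vector) of every region assigned to 6 genes with the most regions, in genomic order within each gene. Further genes tie with the last of them at 7 regions, and the first in alphabetical order are shown. Circles are regions called in the LGP2 library and squares those called in the vector library, dotted lines mark 2-fold, and all 6 genes have regions on both sides of 0.

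NMDA receptors, which need glutamate and a co-agonist, had 7 regions with LGP2 and 8 with the vector at 4 of 7 genes. GRIN2B had 8 of these, with 3, 5, 4, 0, 4, 1, 4 and 1 reads with LGP2 and 2, 4, 2, 3, 2, 3, 1 and 2 with the vector. Regions of the libraries were interleaved along the gene and its flank. GRIN3A had 3 regions called with the vector, with 0, 0 and 4 reads with LGP2 and 4, 3 and 5 with the vector, and the first of them lay 53 bp from a start. GRIN2A and GRIN2D had 2 regions each. GRIN1, the obligatory subunit, had none assigned, nor had GRIN2C and GRIN3B.

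Metabotropic glutamate receptors signal through G proteins. They had 16 regions with LGP2 and 12 with the vector at 7 of 8 genes, and the median log2 ratio was 0.70. GRM4, with 9 regions over and beside a gene of 137.0 kb, had the most regions for its length among the members of 100 kb or longer, 65.7 overlapping regions per Mb. From the lower coordinate up, its regions had 5, 6, 1, 5, 5, 7, 2, 3 and 1 reads with LGP2 and 1, 0, 5, 5, 3, 1, 6, 1 and 4 with the vector. Over the 9 regions 35 reads came from the LGP2 library and 26 from the vector library, counting shared windows more than once. GRM2 had 3 regions, all called with LGP2, with 5, 6 and 5 reads with LGP2 and 1, 3 and 2 with the vector, and the middle one lay 74 bp from a start. GRM7 had 2 regions with LGP2 and 4 with the vector. GRM8 had 3 and 2, GRM5 had 1 and 2, GRM3 had 1 region, called with LGP2, and GRM6 had none assigned.

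GABA-A receptors had 13 regions with LGP2 and 14 with the vector at 12 of 19 genes, with a median log2 ratio of -0.16. Per Mb of gene they had 6.59 regions (3.84 to 10.6), one of the lowest rates of the classes. GABRG3 had 1 region with LGP2 and 3 with the vector, and 12 reads with LGP2 against 18 with the vector. GABRB2, the beta subunit of the common receptor, had 9 and 17 reads. GABRA2, GABRA6, GABRB1, GABRG1, GABRP, GABRQ and GABRR2 had 1 to 3 regions. GABRA3, GABRA4, GABRA5, GABRD, GABRE, GABRR1 and GABRR3 had none assigned, and GABRA5 overlapped 1 called with LGP2.

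Acetylcholine receptors had the fewest. The nicotinic receptors, which are cation channels, had 5 regions with LGP2 and 1 with the vector at 5 of 16 genes. The vector region, 708 bp from a start of CHRNA4, had 1 read with LGP2 and 6 with the vector. CHRNA7 had 1 region with 6 and 4 reads, but part of this gene is copied in CHRFAM7A, so its reads are uncertain. CHRNB2 had 4 and 3 reads, CHRNB4 had 5 and 2, and CHRNG had 4 and 1. CHRNA1, CHRNA2, CHRNA3, CHRNA5, CHRNA6, CHRNA9, CHRNA10, CHRNB1, CHRNB3, CHRND and CHRNE had none assigned, and CHRNA3 overlapped 1 called with the vector.

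Muscarinic receptors couple to G proteins. They had 0 regions with LGP2, which with 6 regions in all allows a share of up to 45.9% (exact 95% CI), and 6 with the vector. CHRM2 had 0, 1 and 0 reads with LGP2 and 3, 4 and 3 with the vector. CHRM3 had 3 and 0 with LGP2 and 4 and 3 with the vector, and CHRM5 had 0 and 4. Summed, the LGP2 library had 4 reads and the vector library 21, a direction that the vector calls fix: over all 137 vector members the sums were 177 and 549 reads, a ratio of 0.322 (0.271 to 0.383). The muscarinic genes overlapped 5 regions, 1 called with LGP2 and 4 with the vector. The class was singled out after its values were seen, and 4 of the 6 regions, at CHRM2 and CHRM5, lay outside the RefSeq genes. CHRM1 and CHRM4 had none assigned.

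Within genes, the libraries were usually mixed. Of the 82 genes with 2 or more regions, 52 had log2 ratios of both signs, 19 had only positive and 11 only negative ratios. Of all 121 genes, 55 had regions of both libraries, 44 of LGP2 only and 22 of the vector only, and 39 had a single region. No chance level was worked out for these counts. By chromosome, all 8 members on chromosome 17 and all 4 on chromosome 22 were called with LGP2, where 61.7% and 65.3% of all regions were. On chromosomes 9 and 10 the members counted 1 and 2 with LGP2 and 6 and 7 with the vector, where 52.2% and 47.9% of all regions were called with LGP2.

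Other channels outside the rule gave a comparison. A list of 39 related channels and receptors (ryanodine and IP3 receptors, HCN, TRP and glycine receptor channels, and others) had 86 regions at 28 genes. The LGP2 library alone called 46 of these (53.5%, against 54.9% of all regions), the vector library alone 39 (45.3%, against 44.9%) and both 1. Their median log2 ratio was 0.16, against 0.43 for the members and 0.15 for all regions. At least 2-fold higher density with LGP2 was seen in 32 (37.2%, exact interval 27.0 to 48.3), against 29.5% of all regions. At least 2-fold lower density was seen in 22 (25.6%, 16.8 to 36.1), against 25.2% of all regions. Both background shares lay within these intervals. RYR3, a ryanodine receptor that releases stored calcium, had 9 regions, 7 called with LGP2 and 2 with the vector.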

How the data were processed

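Chromatin from T98G cells was immunoprecipitated and sequenced, giving 1 ChIP and 1 input library for each of LGP2 and the vector (4 samples). The deposited table lists regions called per library, sorted by the authors as unique to a library or common, each with the normalized read density (a signal value) in both ChIP libraries and the nearest transcript. It also holds the log2 ratio, mean level and p-value of the authors' own comparison, which were not used. No source used here names the aligner, caller, threshold or normalization tool. The labels name the build mm10, a mouse build, but 336 of the 340 member transcripts overlapped the RefSeq gene of their symbol in GRCh38.p14, so positions are printed as deposited and read as GRCh38.

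The log2 ratio (LGP2 over vector) and the mean log2 level were computed from the deposited densities. Whole reads were recovered with 1 read added per library and a 2-kb window, after removal of a straight line in the mean level. All 29302 regions came out whole within 0.01, and on 29302 regions of simulated LGP2 and vector reads 100% were recovered. The 2-kb window was inferred from the scale and not checked in another way.

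No test between conditions was made, with 1 library each. Shares have exact Clopper-Pearson and reads exact Poisson 95% intervals, for counting error only. Called means at least 2-fold, or called in 1 library. Members, classes and lists were chosen with earlier results of these data known. Named were regions called in both libraries, the 10 largest ratios in each direction, the 6 genes with most regions (ties at 7 regions cut alphabetically), regions within 1 kb of a start, and the region with most reads in classes not yet named; further genes are stated as chosen after their values were seen, or are listed by counts only. Some members that this rule names are not reported here. Alternatives were a minimum of 5 reads in the calling library, other scalings and added reads, other gene assignments and narrower sets. Python 3.11.15 was used with pandas 2.3.3, numpy 2.4.6 and scipy 1.17.1.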

Additional observations from a re-analysis of the deposited data

How the results depend on the processing

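No paired analysis was possible because each condition had 1 library, and no replicate could be left out. The share of regions called only with LGP2 stayed between 57.6% and 62.0% under its alternatives, including 4 LGP2 regions counted as shared (58.5%). A minimum of 5 reads in the calling library left 99 regions at 57 genes, and 7129 of the 29302 regions in all. Of the 99, 43 were at least 2-fold higher and 24 at least 2-fold lower, with a median log2 ratio of 0.75 and a promoter share of 25.3%. These values were not worked out over all regions at that minimum. The rate by overlap was 4.15 regions per Mb, against 2.68 over all coding genes. With 1 region per gene, 33 of 121 were higher and 16 lower, also without a value over all regions. With 5 reads added to each library, 19 of the 340 members were higher and 3 lower, against 954 (3.26%) and 443 (1.51%) of all 29302 regions. Of those past 2-fold at this setting, 86.4% of the members were higher, against 68.3% over all regions. Scaling by the reads each library had at regions only the other had called moved the median of all regions by 0.62 and that of the members to 1.03, with 171 members higher and 50 lower (77.4% of those past 2-fold higher, against 60.9% before; over all regions 76.3%, against 53.9%). Recovered reads with no normalization or scaling by the median ratio moved the median of all regions by -0.15. The median of the members stayed above that of all regions by 0.17 to 0.28 under every scaling and added count, but with 1 region per gene it was 0.16 and without auxiliary subunits 0.19, near the 0.15 of all regions. A promoter limit of 1 kb gave 7.35%. Taking every region that overlaps a channel or receptor gene, chosen after seeing the data, gave 60.9% called only with LGP2. Depth limits every single region, with a median of 5 reads over both libraries.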

Other observations

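Proteins that anchor or accompany the channels and receptors, such as scaffolds, ankyrins and DPP-like subunits, were described as a list outside the symbol rule. Of 32 such genes, 21 held 104 regions, 66 called only in the LGP2 library (63.5%, against 54.9% of all regions) and 38 only in the vector library, with a median log2 ratio of 0.70, against 0.15 over all regions. At least 2-fold higher density with LGP2 was seen in 41 of them (39.4%, against 29.5% of all regions) and at least 2-fold lower in 17 (16.3%, against 25.2%). The windows held 306 reads with LGP2 and 232 with the vector, a ratio of 1.32 (1.11 to 1.57), against 0.956 over all regions. These sums follow the calls made from the same reads, so they add no separate evidence to the share of calls.

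The regions lay mostly in introns (77.9%) of a few long genes. SHANK2, a scaffold of excitatory synapses, had 12 regions with LGP2 and 4 with the vector. DLG2, which anchors NMDA receptors and potassium channels, had 8 and 7, and DPP10, a companion of Kv4 channels, had 8 and 5. All 6 regions of ANK3, which gathers sodium channels at the axon initial segment, were called with LGP2, and UNC79, a partner of the sodium leak channel, had 1 with LGP2 and 3 with the vector. These genes were picked from the list after their values were seen.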
